A study of Mus musculus with 12 samples.

Results

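The ribosomal protein genes were taken as every merged ATAC-seq peak whose nearest gene was a protein-coding gene named Rpl or Rps with a number, or Rpsa, Rplp0, Rplp1 or Rplp2, with the Rps6 kinase genes left out. In untreated mice 207 of 60288 peaks met this rule, and they belonged to 79 genes. After lipopolysaccharide (LPS), a bacterial endotoxin, 179 of 54953 peaks met it, in 78 genes. The 78 genes with a peak in both tables included all but Rpl18, which had a peak of its own only in the untreated table. In the LPS table a peak also covered its annotated start, but it was assigned to Sphk2. The 79 genes comprised 43 genes named for the large subunit, with the retrocopies Rpl34-ps1 and Rpl37rt among them, 28 small-subunit genes, the 3 stalk genes Rplp0, Rplp1 and Rplp2, and 5 other relatives that the name pattern takes in, namely the paralogs Rpl22l1, Rpl36al, Rpl7l1 and Rps27l and the Rps19-binding protein gene Rps19bp1.

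Each ribosome is built from a large subunit, which joins amino acids, and a small subunit, which decodes the mRNA. Dividing and resting cells alike make the ribosomal proteins, which within a cell are made in near-equal amounts to one another. Their genes are scattered over the chromosomes, have promoters rich in G and C, and start transcription at a C followed by a run of pyrimidines. This 5′ terminal oligopyrimidine (TOP) tract lets growth signals through mTOR control the translation of their mRNAs. Because every cell needs them, these genes are commonly used as a housekeeping baseline.

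The assay, ATAC-seq, maps open chromatin through a transposase that inserts adapters into accessible DNA. All mice were wild-type C57BL/6J animals that had received 950 cGy and donor bone marrow 3.5 or 9 months before the brain was taken, so no group was free of irradiation. Graft-derived cells (CD45.1) and host microglia (CD45.2) were sorted from the same brains, and CD45.1 and CD45.2 are variants of one leukocyte surface antigen. Mice 4, 5 and 6 stayed untreated, and mice 1, 2 and 3 were killed 12 h after 2.5 mg/kg LPS, which gives 4 groups of 3 libraries (CD45.1 untreated, CD45.2 untreated, CD45.1 LPS, CD45.2 LPS). The labels do not say which mouse was kept for which interval.

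Libraries held 8392877.5 to 9107770 tags in untreated mice and 2966364 to 6556594.5 after LPS, and the study counted tags in peaks that were merged for each treatment apart. Of the 10 microglial marker genes checked, 8 had a promoter peak, with summed normalised tags of 599.5 to 770.3 in untreated CD45.1 libraries and 734.0 to 815.2 in untreated CD45.2 libraries, and Csf1r and Sall1 had none. Promoter peaks of monocyte, neutrophil, lymphocyte and endothelial markers were at 0 of 5, 0 of 5, 0 of 6 and 0 of 4 genes in untreated mice. In untreated mice 1 of 4 neuron markers (3.277 to 15.79 summed normalised tags), 1 of 4 astrocyte markers and 2 of 4 oligodendrocyte markers (38.31 to 51.62) had one. The astrocyte marker did not overlap between the populations, with 10.35 to 16.43 in untreated CD45.1 against 24.38 to 53.15 in untreated CD45.2, and 3.302 to 5.219 against 6.978 to 19.89 after LPS, and its part in the comparisons of the populations was not tested. After LPS 1 of 5 monocyte and 1 of 5 neutrophil markers had one, at no more than 28.5 summed normalised tags in any library, and the 8 microglial genes gave 179.3 to 234.2. Tags were scaled within each treatment apart, so untreated and LPS values in this paragraph are not on one scale and cannot be compared. In such bulk libraries, fewer cells with an open site and less signal per cell cannot be told apart.

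Promoters made up a larger part of these peaks than of the series. A promoter peak here is one that the deposited annotation places at a transcription start, and all others are called distal. In untreated mice 94 of the 207 peaks were at promoters, 45.4% against 22.2% of all peaks, and after LPS 86 of 179, 48.0% against 22.7%. In all, 76 of the 79 genes had a promoter peak in untreated mice and 75 after LPS. The exceptions in the untreated table were the retrocopies Rpl34-ps1 and Rpl37rt and Rps28, a small-subunit gene. At Rps28 a peak at the annotated start was assigned to its neighbour Ndufa7. Of the 94 promoter peaks, 68 had their centre within 100 bp of the start site. Their median width was 147.5 bp and their median G+C content 59.5%, against 145 bp and 64.5% over all promoter peaks.

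A TOP tract stood at the annotated start of some of the genes. RefSeq promoter sequences of 58 of the genes, from build GRCm38.p6, could be placed in the mm9 build of the peaks by exact and unique match. A C followed by pyrimidines, in a run of at least 5 bases, stood at the RefSeq start of 11 of the 58 genes, against 813 of 27025 genes overall (3.01%). Annotated starts can lie some bases away from the start in use, so these shares describe the annotation. In the windows that follow, written on the coding strand in mm9, capitals mark the tract that begins at the start site. They are shown for Rpl35, Rps10, Rps18 and Rps6, the genes with the longest tracts, and all 4 starts lay inside a peak in both tables.
Rpl35 (chr2:38860637-38860665, minus strand): ggccccgccctttcCTCTTTCTCTCgaac
Rps10 (chr17:27772175-27772203, minus strand): cgccgcgcacgcccCTTCCTTTCCagcct
Rps18 (chr17:34092596-34092624, minus strand): acgtcacttccgctCTCTCTTCCacagga
Rps6 (chr4:86503257-86503285, minus strand): agcggaagtcgggcCTCTTTTTCgtgacg

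Short motifs were searched on both strands in the 200 bp around each peak centre. The core of ETS-family sites, CCGGAAG, was in 32 of the 94 promoter peaks (34.0%), against 15.3% of all 13366 promoter peaks in the untreated table. The palindrome made of TCTCG and its reverse complement was in 7 (7.45%) against 0.935%, and the TATA box letters TATAAA were in 8 (8.51%) against 3.04%. The GC box GGGCGG, the commonest of the letters searched, was in 55.3% against 60.4%. In the LPS table the shares were 30.2% against 15.5% for the ETS core and 6.98% against 0.97% for the palindrome. These counts describe letters and do not show which factor was bound. The next stretches lie just upstream of a start and have the ETS core or the palindrome in capitals, on the coding strand, so that the letters behind those shares can be seen in strong promoters (Rpl37, Rps21, Rps6) and in Rpl26, to which the results return.
Rpl37 (chr15:5066503-5066612, plus strand): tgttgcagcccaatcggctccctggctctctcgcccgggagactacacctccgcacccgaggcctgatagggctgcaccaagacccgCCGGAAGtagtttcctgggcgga
Rps21 (chr2:179991974-179992083, plus strand): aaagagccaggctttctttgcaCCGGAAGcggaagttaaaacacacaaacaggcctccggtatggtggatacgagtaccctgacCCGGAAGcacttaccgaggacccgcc
Rps6 (chr4:86503302-86503381, minus strand): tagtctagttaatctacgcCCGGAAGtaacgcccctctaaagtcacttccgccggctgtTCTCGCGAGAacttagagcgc
Rpl26 (chr11:68714958-68715067, plus strand): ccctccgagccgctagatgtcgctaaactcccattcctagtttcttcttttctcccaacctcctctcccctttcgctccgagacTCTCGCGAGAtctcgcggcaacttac

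Most of the promoter peaks were found in every library. Of the 94 untreated promoter peaks, 86, 86 and 87 overlapped a peak in the own list of the 3 CD45.1 libraries, and 78, 90 and 86 in those of the 3 CD45.2 libraries. All 6 lists shared 75 of the 94. After LPS the numbers of 86 were 75, 70 and 79 in CD45.1 and 68, 75 and 77 in CD45.2, and 62 were in all 6 lists. With an overlap of at least 50% the count of CD45.1 LPS mouse 3 dropped from 79 to 33, and the other 5 LPS libraries had 66 to 68. The low value of 78 belonged to CD45.2 mouse 4, which also had the lowest share of tags in peaks, 18.4% against 26.3% to 39.0% in the other 11 libraries. Mean detection was 91.9% ± 0.635 (SD, n = 3) in untreated CD45.1 and 90.1% ± 6.47 in untreated CD45.2, against 85.9% and 85.8% for all promoter peaks. In the LPS groups it was 86.8% ± 5.26 and 85.3% ± 5.46, against 79.6% in both for all promoter peaks. The distal peaks of the same genes were found less evenly, in 77.3% and 68.4% of cases in untreated CD45.1 and CD45.2 and in 50.2% and 54.1% after LPS. Detection over all distal peaks was not computed for comparison.

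The share of peak tags at these promoters changed little between groups. In untreated mice it was 0.373%, 0.357% and 0.399% in CD45.1 and 0.389%, 0.365% and 0.361% in CD45.2. After LPS it was 0.345%, 0.34% and 0.338% in CD45.1 and 0.352%, 0.364% and 0.37% in CD45.2. The untreated populations overlapped, and after LPS every CD45.1 library lay below every CD45.2 library, with means of 0.341% ± 0.00381 and 0.362% ± 0.00881 (SD, n = 3). With 3 libraries a group an exact permutation test could not reach 0.05, so no p is given. LPS and untreated shares come from different peak sets.

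**Figure D1:**
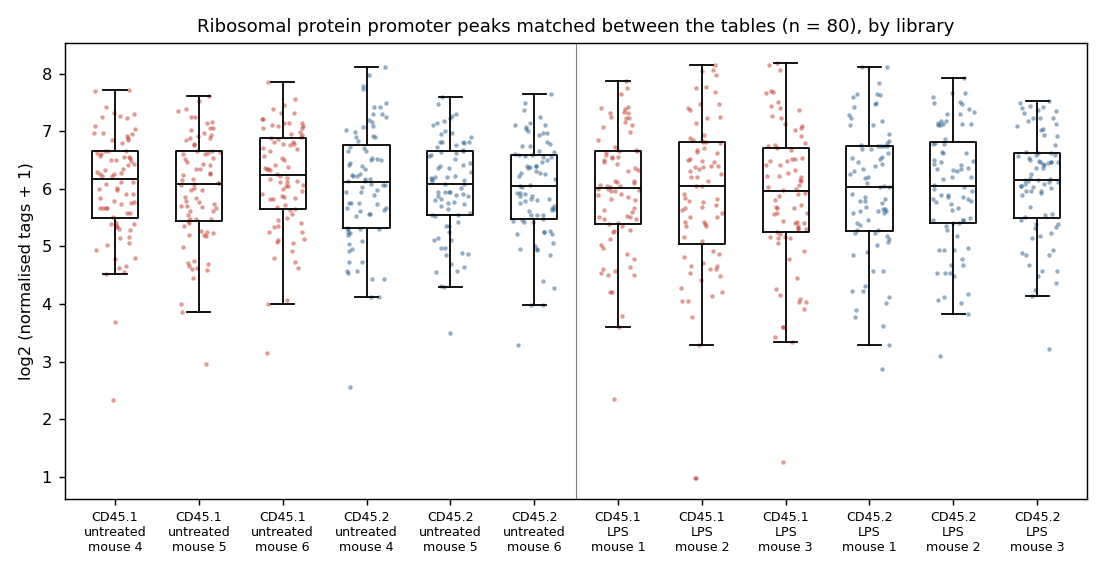
Levels of the 80 promoter peaks that could be matched between the tables, as log2 of normalised tags plus 1 (y axis), in each of the 12 libraries (x axis; red, CD45.1; blue, CD45.2). Each point is a peak, boxes give the quartiles and the median, and whiskers reach the farthest point within 1.5 box lengths. The medians sit close together in all libraries, and the points below the boxes spread further down in the LPS libraries.

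The spread between mice at these promoters was close to that of all promoters. The median SD of log2 normalised tags was 0.16 in untreated CD45.1 and 0.16 in untreated CD45.2 libraries, against 0.19 and 0.19 over all promoter peaks. After LPS it was 0.26 and 0.23, against 0.25 and 0.26. Scaling by total tags raised the median SD in untreated CD45.2 to 0.58 (all promoter peaks, 0.59). Their distal peaks varied more between mice, with median SDs of 0.27 and 0.28 in untreated mice and 0.41 and 0.35 after LPS. No SD over all distal peaks was computed beside these.

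The strongest promoter peaks per length in untreated mice belonged to Rpl34, Rpl31, Rpl37, Rpl22l1 and Rps21. Their mean levels were 1738 normalised tags per kb in CD45.1 and 1611 in CD45.2 at Rpl34, and 1470 and 1308 at Rps21. The same 5 genes led after LPS, where Rpl34 had 1068 and 835 normalised tags per kb and Rps21 had 695 and 541, on the scale of that table. Rpl34, a protein of the large subunit, had 255, 249.2 and 252 normalised tags per peak in CD45.1 and 269, 224 and 208 in CD45.2. The populations overlapped, with a log2 fold change of CD45.1 over CD45.2 of 0.13 (SE 0.14, adjusted p of 0.696 in DESeq2). At Rpl31 the values were 236, 211 and 224 in CD45.1 and 258, 220 and 199 in CD45.2. Rpl37 had 229, 209 and 224 in CD45.1 against 320, 206 and 222 in CD45.2, where mouse 4 alone was high. Rpl22l1, the paralog of Rpl22, had 223, 242 and 205 against 258, 181 and 202. Its range was wider in host cells, again through mouse 4. Rps21, a small-subunit protein, had 316, 274 and 349 against 332, 261 and 243, and its populations overlapped too.

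Comparing graft with host cells at rest asks whether the 2 macrophage populations of one brain differ in chromatin access at genes that both need. None of the 94 promoter peaks passed an adjusted p of 0.05 in DESeq2's Wald test, and none had an unadjusted p under 0.05. Across all genes 5.01% of the tested promoter peaks passed, and 1241 of 13193 had an unadjusted p under 0.05. edgeR's quasi-likelihood test also called 0 of the 94. The median log2 fold change was 0.07 (all promoter peaks, 0.05), with a range of -0.41 to 0.80 and a median standard error of 0.20. Of the 94, 63 were above 0 and 31 below. The 95% interval of the fold change lay wholly within 2-fold in 92.6% of the peaks, against 77.4% of all promoter peaks, so for most of these promoters a change of 2-fold or more was outside the interval. At 11 of the 94 (11.7%) graft and host libraries had no overlap, against 19.5% of all promoter peaks.

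**Figure D2:**
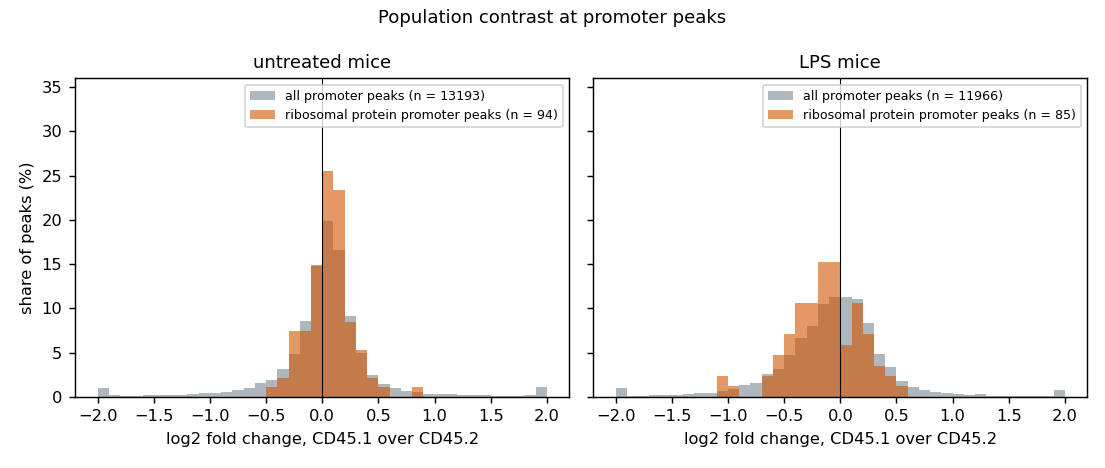
Share of promoter peaks (y axis, %) by log2 fold change of CD45.1 over CD45.2 (x axis, bins of equal width; the end bins also hold more extreme values) in untreated mice (left) and LPS mice (right), for ribosomal protein promoters (orange) and all promoters (grey). The ribosomal protein promoters centre on 0.07 in untreated mice and on -0.16 after LPS, and none lies in the end bins.

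The direction at these promoters was not the same in every mouse. At the 94 promoters the median log2 difference of CD45.1 minus CD45.2 was -0.06 in mouse 4, -0.02 in mouse 5 and 0.20 in mouse 6. CD45.1 was the higher population at 38, 45 and 77 of the 94. All promoter peaks gave -0.05, 0.03 and 0.14 in the same mice, so mouse 6 was shifted over the whole genome's promoters.

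By role, the 32 small-subunit promoter peaks all had intervals within 2-fold, as had 45 of the 50 large-subunit peaks, 4 of the 5 stalk peaks and 6 of the 7 peaks of relatives. The smallest p at a promoter in untreated mice was that of Rpl37a, a large-subunit protein. Its peak had 103, 111 and 104 normalised tags in CD45.1 and 79.5, 89.0 and 81.2 in CD45.2. The populations did not overlap, yet the log2 fold change was 0.35 (SE 0.20, adjusted p of 0.287 in DESeq2). Rpl7 and Rps15 were other promoters without overlap. Rpl7, of the large subunit, had 118, 106 and 104 in CD45.1 against 135, 124 and 141 in CD45.2 (log2 fold change -0.28, SE 0.18, adjusted p of 0.383 in DESeq2). Rps15, of the small subunit, had 138, 127 and 158 against 114, 107 and 124 (0.29, SE 0.18, adjusted p of 0.334 in DESeq2). Both differences were smaller than the spread allowed the test to call.

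Genes with roles outside the ribosome did not pass either. Rpl5 and Rpl11, which bind Mdm2 when ribosome assembly fails and so raise p53, had log2 fold changes of -0.14 (SE 0.20) and 0.20 (SE 0.19). Rps6, the substrate of S6 kinase, had 165, 171 and 163 normalised tags in CD45.1 and 180, 149 and 138 in CD45.2, with a log2 fold change of 0.12 (SE 0.16). Rps19 and Rps14, both tied to anaemias when a copy is lost, gave 0.05 (SE 0.16) and 0.05 (SE 0.19) at their strongest promoter peaks. Rpsa, also known as a laminin receptor, gave 0.10 (SE 0.18), and Rplp0, the base of the stalk, 0.22 (SE 0.16). Rps27a, made as a fusion with ubiquitin, gave 0.17 (SE 0.25) at its promoter. No promoter of these genes had an adjusted p under 0.05 in DESeq2.

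The genes on the X chromosome, Rpl10, Rpl36a, Rpl39 and Rps4x, had 5 promoter peaks. All 5 had intervals within 2-fold between the populations in untreated and in LPS mice. Rpl39 had 134, 119 and 139 normalised tags in CD45.1 and 138, 134 and 114 in CD45.2. Rps4x had 57.8, 46.1 and 56.1 against 50.0, 41.0 and 55.2, and its log2 fold change was 0.14 (SE 0.27). The least certain promoter was that of Rpl4, with 11.7, 5.93 and 17.4 against 13.1, 14.3 and 8.93 (log2 fold change -0.08, SE 0.57), a low count at which a 2-fold difference was not detectable.

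**Figure D3:**
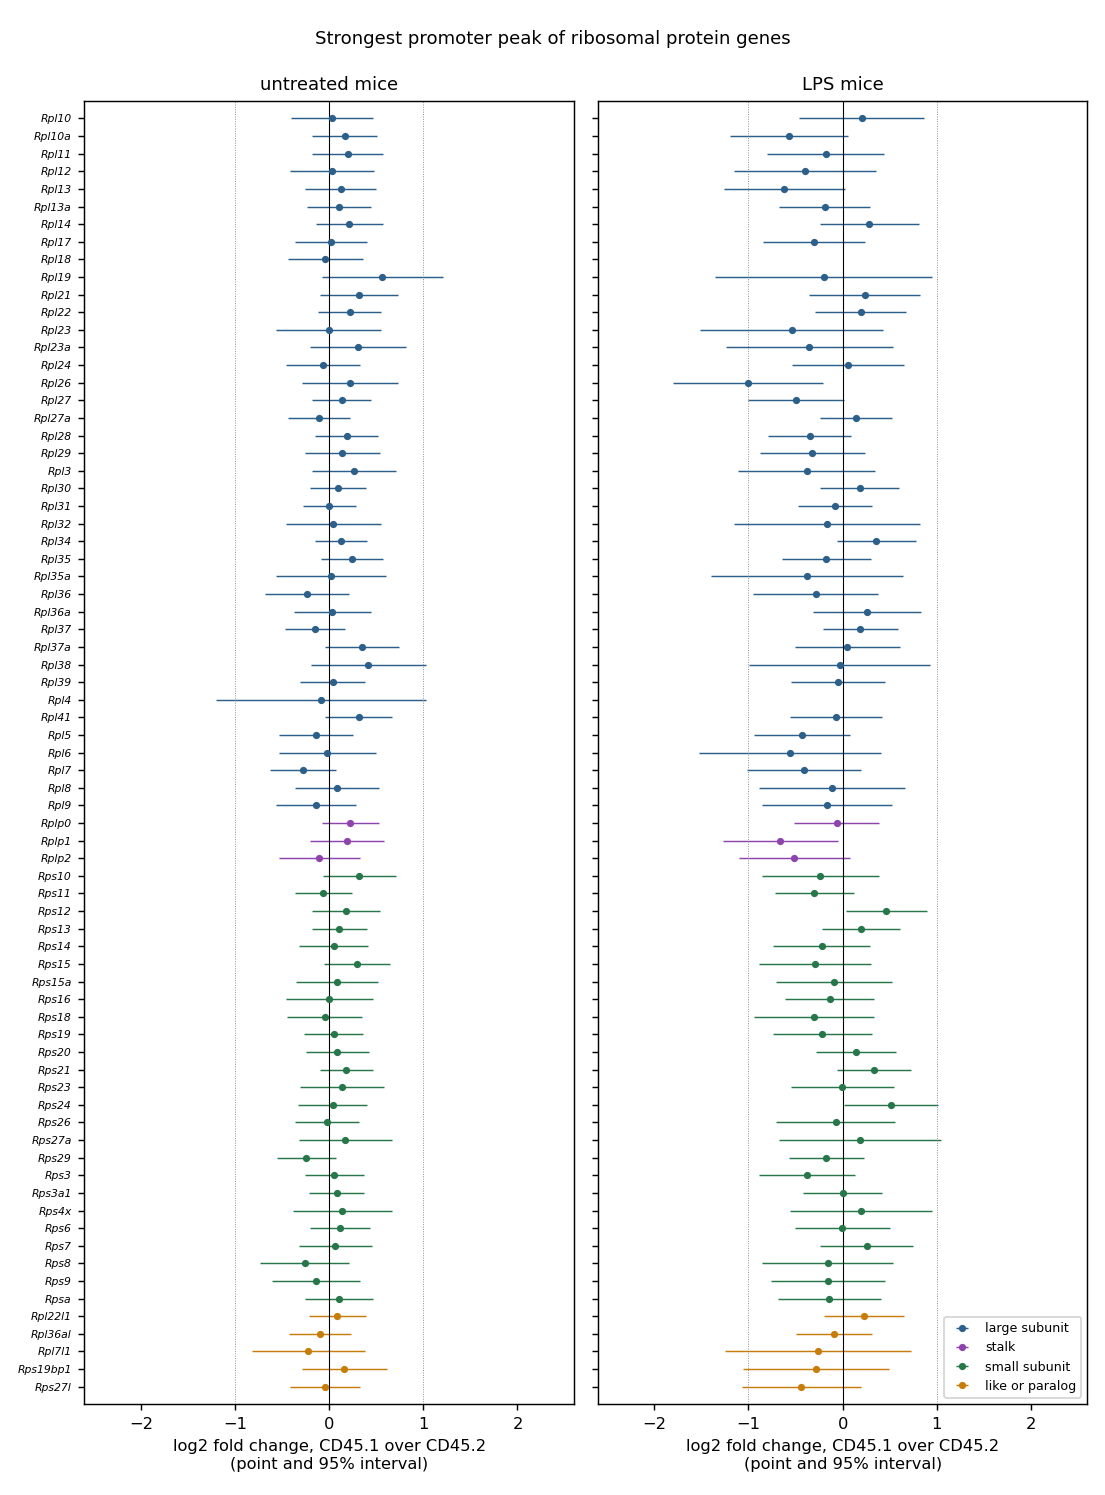
Log2 fold change of CD45.1 over CD45.2 (x axis; point, estimate; line, 95% interval) at the promoter peak with the most tags of each ribosomal protein gene (rows; 3 genes are not shown), in untreated mice (left) and LPS mice (right), coloured by role. The dotted lines mark a 2-fold difference. In untreated mice the intervals of Rpl19 and Rpl4 are the widest, and after LPS most intervals are wider. Rpl18 and Rpl4 have no estimate after LPS, where the peak at the Rpl18 start was assigned to Sphk2.

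All differences that passed lay away from the promoters. Of the 111 tested distal peaks, 9 were higher in CD45.1 and 3 higher in CD45.2 at an adjusted p under 0.05 (8.11% and 2.7% of them). Over all genes 10.2% and 7.48% of distal peaks passed in these directions. Of the 9, 4 were over 4-fold at an adjusted p under 0.01, where 4.64% of all distal peaks passed upward. In 34 of the 111 (30.6%) the populations did not overlap, against 40.1% of all distal peaks. The distal peaks of ribosomal protein genes were thus called no more often than distal peaks at large. A distal peak is tied to a gene only by being nearest to its start, and many lay inside other genes.

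The clearest site was between genes, at -2724 bp from the start of Rps16, a small-subunit gene. It had 33.1, 31.9 and 31.0 normalised tags in CD45.1 and 1.64, 0 and 0.812 in CD45.2. Every graft library was high and every host library at the level of 1 tag or none. The log2 fold change was 5.63 (SE 1.06, adjusted p of 5.06e-06 in DESeq2). Since the 3 host libraries held 2 tags in all, the ratio of 50.3 had an exact counting interval of 13.6 to 421. Both tables had a peak there, and its sequence on the plus strand of mm9 is given with the part inside the untreated peak in capitals and the edges of the wider LPS peak in lower case. No annotated exon lies in it, and none of the myeloid motif letters searched, those of PU.1, AP-1, RUNX and C/EBP type sites, was found.
Rps16 distal peak (chr7:29132910-29133052): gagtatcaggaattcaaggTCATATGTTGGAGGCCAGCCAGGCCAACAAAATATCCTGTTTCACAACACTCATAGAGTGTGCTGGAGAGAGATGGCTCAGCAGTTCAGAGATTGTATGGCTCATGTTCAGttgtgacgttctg

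A pair of sites upstream of Rps14 was open in graft cells. At -11475 bp the values were 54.1, 47.5 and 75.7 normalised tags in CD45.1 and 9.83, 4.26 and 15.8 in CD45.2 (log2 fold change 2.53, SE 0.41, adjusted p of 5.28e-08 in DESeq2). At -21536 bp they were 13.99, 11.9 and 12.0 against 0, 1.94 and 0.812 (3.76, SE 1.04, adjusted p of 0.00374 in DESeq2). At both sites the populations were far apart, and the promoter of Rps14 itself was even, with 117, 113 and 109 in CD45.1 and 99.1, 107 and 120 in CD45.2. Host counts at the second site came to 4 tags, and the ratio of 9.9 had an exact counting interval of 3.57 to 38.2.

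A further pair of sites, assigned to Rpl31, lay within introns of other genes. One, at -60396 bp in Npas2, a transcription factor of the circadian clock, had 29.4, 29.7 and 23.96 normalised tags in CD45.1 and 4.1, 3.87 and 1.62 in CD45.2 (log2 fold change 3.27, SE 0.63, adjusted p of 8.89e-06 in DESeq2). The other, at 28710 bp in Tbc1d8, a gene of the Rab regulator family, had 35.9, 41.1 and 17.97 against 8.19, 13.5 and 5.27 (1.79, SE 0.49, adjusted p of 0.00368 in DESeq2). Neither pair of groups overlapped, while the Rpl31 promoter had a log2 fold change of 0.00 (SE 0.14). The Npas2 site is printed on the plus strand as the intronic difference with the smallest p, and it too held none of the myeloid motif letters.
Rpl31 distal peak in Npas2 (chr1:39364221-39364380): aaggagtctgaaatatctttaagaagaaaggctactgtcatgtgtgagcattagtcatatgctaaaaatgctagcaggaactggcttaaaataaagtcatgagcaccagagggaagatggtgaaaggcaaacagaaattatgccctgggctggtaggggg

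Another 3 distal peaks were higher in CD45.1 by less, or at low counts. A peak at -1593 bp from Rps27a, in an intron of 1700034F02Rik, had 81.2, 96.3 and 84.4 normalised tags against 54.1, 30.2 and 47.1 (log2 fold change 1.04, SE 0.26, adjusted p of 0.00082 in DESeq2). A peak at 5903 bp from Rps9, between Rps9 and the leukocyte receptor gene Lilrb3, had 13.5, 13.7 and 23.96 against 2.46, 1.55 and 6.9 (2.14, SE 0.68, adjusted p of 0.0141 in DESeq2). In both, each graft library exceeded each host library. A peak at 22519 bp from Rpl5, in Fam69a, was high in graft mouse 6 alone, with 3.27, 1.37 and 21.2 against 0, 0.774 and 0.406. Its log2 fold change was 4.64 (SE 1.48, adjusted p of 0.0157 in DESeq2), and it did not pass without CD45.2 mouse 4 or CD45.2 mouse 6 (adjusted p of 0.0708 and 0.122). Without CD45.1 mouse 6 its counts were too low for a test.

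The weakest graft-side call was a strong peak at -169905 bp from Rpl34, with 113, 151 and 120 normalised tags against 77.8, 71.2 and 105 (log2 fold change 0.58, SE 0.21, adjusted p of 0.0408 in DESeq2). It passed in 1 of the 6 fits with 1 library left out. The 3 host-side calls all lay within other genes, and not all of their bases were intronic. Values are given for 2 of them. At 19521 bp from Rpl37rt, in Sppl3, an intramembrane protease gene, they were 3.73, 4.11 and 1.09 normalised tags in CD45.1 against 12.3, 16.6 and 10.6 in CD45.2 (log2 fold change -2.24, SE 0.74, adjusted p of 0.0208 in DESeq2). At -19275 bp from Rpl7l1, in BC032203, they were 3.73, 10.04 and 3.27 against 32.8, 17.03 and 10.6 (-1.75, SE 0.62, adjusted p of 0.0339 in DESeq2). The groups did not overlap at either, but the Rpl37rt peak passed in 0 of the 6 fits with 1 library left out and the Rpl7l1 peak in 2 of 6. With the mouse as a block neither passed (DESeq2, adjusted p = 0.0779 and 0.104), nor did the Rpl5 and Rpl34 peaks (0.0613 and 0.144).

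The calls at Rps16, at both Rps14 sites and in Npas2 passed in all 6 fits with 1 library left out, and with the block. The others each lost the call without at least 1 library. The Rps27a peak did so without CD45.2 mouse 5 (adjusted p of 0.0649 in DESeq2), and the Rps9 peak without CD45.1 mouse 6 or CD45.2 mouse 5. The Tbc1d8 peak did so without CD45.1 mouse 4, CD45.1 mouse 5 or CD45.2 mouse 6.

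**Figure D4:**
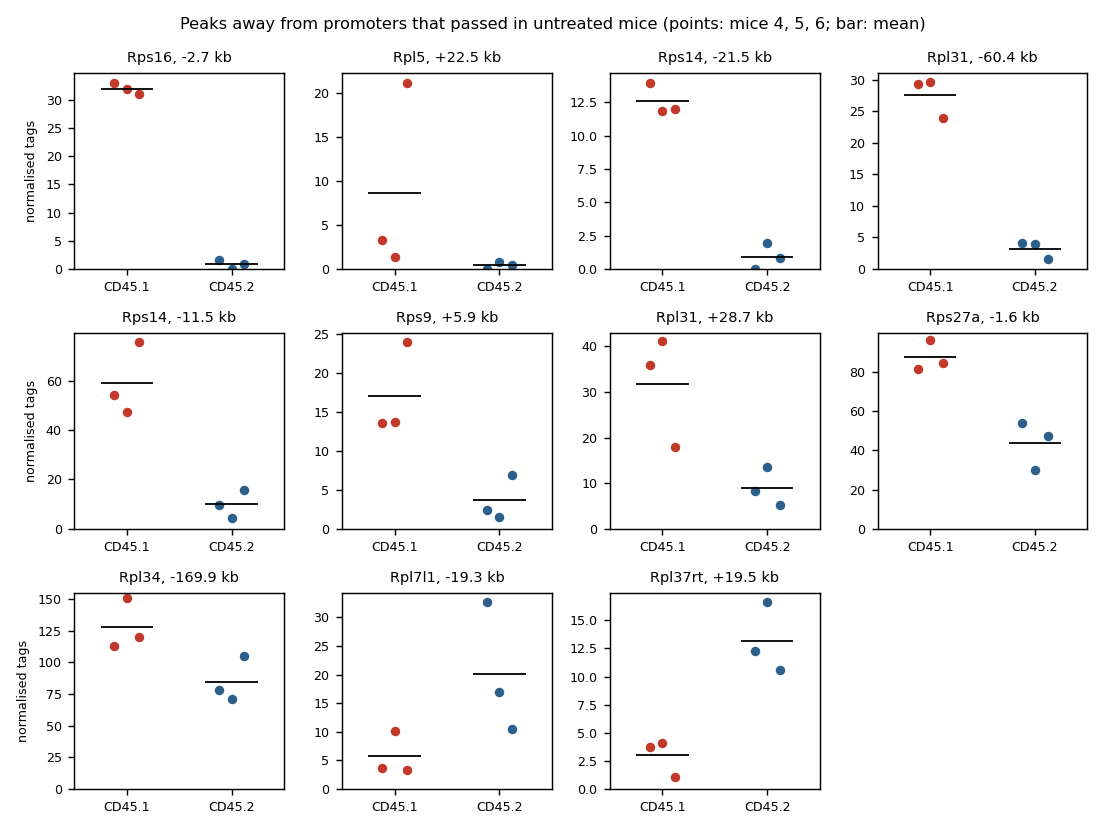
Normalised tags (y axis, one scale for each panel, starting at 0) in the 3 CD45.1 (red) and 3 CD45.2 (blue) untreated libraries at 11 of the 12 distal peaks that passed, each named by its nearest ribosomal protein gene and the distance to its start in kb. Bars are means. The points of the populations do not overlap in any panel, and at Rpl5 a single graft library is high.

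Myeloid motif letters were also counted in the distal peaks, with no test of the shares. The PU.1-type letters GAGGAAGT were in 5.31% of the 113 distal peaks against 11.2% of all distal peaks in the untreated table, and the AP-1 letters TGANTCA in 5.31% against 9.55%. The C/EBP-type letters TTGCNNAA were in 10.6% against 11.1%. After LPS the shares were 7.53% against 10.3% for PU.1 and 12.9% against 16.2% for AP-1 letters.

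The second comparison asks whether graft and host cells of LPS-treated mice differed at the same genes. No promoter peak of the 85 tested passed in DESeq2, where 4 had an unadjusted p under 0.05 and 2.17% of all promoter peaks passed. Of all promoter peaks, 875 of 11966 had an unadjusted p under 0.05. The median log2 fold change was -0.16, against -0.04 for all promoter peaks, with 26 above 0 and 59 below. Scaling by total tags moved that median to -0.02 and the median of all peaks by 0.14. Intervals lay within 2-fold in 67.1% of the peaks (all promoter peaks, 59.2%), a smaller share than in untreated mice at the lower depth of these libraries. In 12 of the 85 (14.1%) the populations did not overlap, against 18.9% of all promoter peaks. By mouse the median was -0.01, -0.11 and -0.27 in mice 1, 2 and 3, against -0.04, -0.01 and -0.06 for all promoters.

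Rpl26, a large-subunit protein whose promoter letters are given above, came nearest to a call. It had 21.02, 13.7 and 10.9 normalised tags in CD45.1 and 32.4, 29.7 and 31.5 in CD45.2, with no overlap. The log2 fold change was -1.004 (SE 0.41, adjusted p of 0.141 in DESeq2), and edgeR's quasi-likelihood test called it (adjusted p = 0.024). In untreated mice the same promoter had 61.1, 52.9 and 88.2 in CD45.1 against 48.3, 66.2 and 54.8 in CD45.2, with overlap and a log2 fold change of 0.22 (SE 0.26). The stalk genes Rplp1 and Rplp2 had log2 fold changes of -0.66 (SE 0.31) and -0.51 (SE 0.30) after LPS, and Rplp0 had -0.06 (SE 0.23). Rpl34, the strongest promoter, had 118, 168 and 195 in CD45.1 against 139, 125 and 111 in CD45.2 (0.35, SE 0.21), an overlap that came from mouse 1.

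Among 82 tested distal peaks after LPS, 2 were higher in CD45.1 and 0 in CD45.2, where 5.04% and 2.8% of all distal peaks passed in these directions. One of the 2 was over 4-fold at an adjusted p under 0.01, which 2.21% of all distal peaks reached upward. Both were sites seen in untreated mice. The Rps16 site, at -2727 bp in this table, had 26.7, 27.4 and 20.8 normalised tags in CD45.1 and 1.75, 1.74 and 4.16 in CD45.2 (log2 fold change 3.13, SE 0.64, adjusted p of 9.95e-05 in DESeq2, and 0.00253 with the mouse as a block). The Rps14 site, at -11488 bp, had 37.6, 45.0 and 27.4 against 10.5, 11.8 and 11.58 (1.63, SE 0.41, adjusted p of 0.00316 in DESeq2, and 0.0417 with the block). The first passed with any 1 library left out. The second did not pass without CD45.1 mouse 2 (adjusted p of 0.0799 in DESeq2). In 15 of the 82 (18.3%) the populations did not overlap, against 29.8% of all distal peaks. Another peak between genes, at -157350 bp from Rpl34, missed the threshold, with 2.83, 13.7 and 12.3 against 0.876, 0 and 2.38 (3.14, SE 1.09, adjusted p of 0.0593 in DESeq2).

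Summed over all peaks of a gene, 3 of 79 genes passed in untreated mice, where 14.8% of all genes did. Rps27a was higher in CD45.1 (log2 fold change 0.60, adjusted p of 0.0123 in DESeq2), as was Rps14 (0.31, adjusted p of 0.0231 in DESeq2), and Rpl7l1 was lower (-0.55, adjusted p of 0.0271 in DESeq2). Distal calls enter the sums of all 3 genes, none of which passed on promoter peaks alone or with the mouse as a block. After LPS 0 of 77 genes passed, against 7.07% of all genes, and 2 of them had an unadjusted p under 0.05. Of all genes, 2629 of 15722 did.

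The effect of LPS within each population was measured on peaks that overlapped between the tables by at least 50% of both lengths, 140 of which belonged to ribosomal protein genes (80 promoter and 60 distal). Treatment and peak set were confounded here, since peaks were called, merged and counted for each treatment apart. Matched promoter peaks were 149.5 bp wide in the untreated and 189 bp in the LPS table (medians), and 63 of the 80 were wider after LPS. In CD45.1 cells 10 promoter peaks were higher and 12 lower after LPS (12.5% and 15%), where 13.7% and 7.62% of all promoter peaks passed. In CD45.2 cells 6 were higher and 1 lower (7.5% and 1.25%), where 9.84% and 2.29% passed. Median log2 fold changes were -0.08 and 0.02, against 0.03 and 0.06 for all promoter peaks. The CD45.1 counts moved with the method, to 3 higher and 0 lower under scaling by total tags.

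The promoter peaks of Rps19 moved in opposite directions after LPS. Its peak at -492 bp had 22.1, 15.0 and 15.0 normalised tags in untreated CD45.1 and 101, 97.2 and 60.2 after LPS, and 22.8, 18.7 and 14.8 against 107, 97.3 and 94.96 in CD45.2. The rise of 2.30 (SE 0.27) and 2.42 (SE 0.27) on the log2 scale was the largest among these promoters. Its neighbour at -254 bp, whose interval was 148 bp in the untreated and 93 bp in the LPS table, fell by 0.69 and 0.65 on the log2 scale. With an offset for peak length, the log2 fold change of this second peak became 0.26 in CD45.1 and 0.29 in CD45.2. Summed over all promoter peaks of the gene, 3 in the untreated and 2 in the LPS table, Rps19 had 232, 218 and 217 in untreated CD45.1 and 186, 172 and 127 after LPS (log2 fold change -0.46, adjusted p of 0.0156 in DESeq2). The sum in CD45.2 was 256, 214 and 205 against 189, 182 and 157 (-0.36, adjusted p of 0.091 in DESeq2). The sign of the sum was thus opposite to that of the -492 bp peak. The summed peaks cover different bases in each table and the sums had no length offset, so no sign for the whole promoter follows.

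Other promoters that were higher after LPS in both populations were Rpl27a (0.91 and 0.63 on the log2 scale, in CD45.1 and CD45.2), Rpl22l1 (0.74 and 0.55) and Rps23 (0.71 and 0.82). With the length offset Rpl22l1 passed in neither population (adjusted p of 0.0541 and 0.343 in DESeq2), and Rps23 passed in CD45.2 but not in CD45.1 (adjusted p of 0.0607 in DESeq2). Rpl27a had 99.6, 98.0 and 111 normalised tags in untreated CD45.1 and 166, 216 and 204 after LPS, but its interval went from 136 to 252 bp, and with the length offset it passed in neither population (adjusted p of 0.205 and 0.967 in DESeq2). Rpl37 rose in CD45.1, from 153, 140 and 148 to 234, 283 and 268 (log2 fold change 0.83, SE 0.18), and kept its call with the length offset (0.79). Of the 12 promoter peaks lower in CD45.1, those named here besides that of Rps19 were Rpl32 (-1.24), Rpl6 (-1.05), Rpl26 (-0.97), Rpl13 (-0.89), Rps19bp1 (-0.87), Rpl11 (-0.87) and Rps3 (-0.76). With the length offset Rpl32 (-0.65), Rpl26 (-0.58), Rpl11 (-0.58) and Rps3 (-0.39) no longer passed (adjusted p of 0.192, 0.187, 0.0645 and 0.14 in DESeq2), while Rpl6, Rpl13 and Rps19bp1 did. Rpl13 had 74.1, 66.1 and 83.8 before and 44.5, 39.8 and 36.4 after LPS, with no overlap. Rps3, a protein at the mRNA entry of the small subunit, had 124, 118 and 158 before and 89.7, 82.6 and 63.0 after. None of the 4 X-linked genes had a promoter peak that passed in either population.

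**Figure D5:**
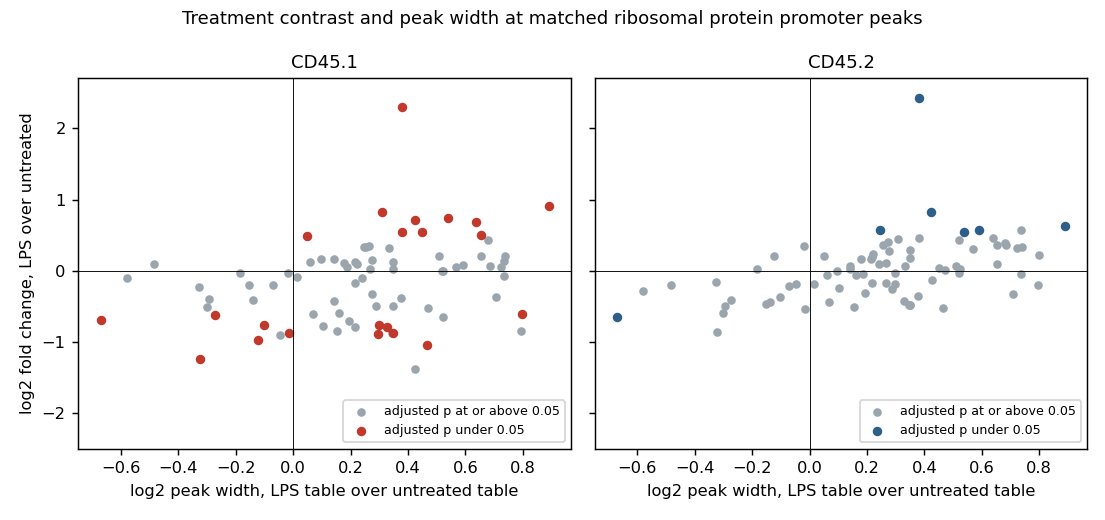
Log2 fold change of LPS over untreated (y axis) against log2 of the ratio of peak widths in the LPS and the untreated table (x axis) at the 80 matched ribosomal protein promoter peaks, in CD45.1 (left) and CD45.2 cells (right). Coloured points have an adjusted p under 0.05. Peaks that were wider in the LPS table tended to have the higher values, and the Rps19 peak stands apart at the top of both panels.

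Across the 80 promoters the fold change of LPS moved with the change in peak width, with Pearson's r of 0.29 in CD45.1 and 0.46 in CD45.2. Across all 10668 matched promoters r was 0.39 and 0.46. The points share libraries and peak calling, so these values are a description. With the length offset r at the 80 promoters turned to -0.28 and -0.31, and the counts to 6 higher in CD45.1. How much of the LPS difference goes with peak width was not tested further.

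With the promoter peaks of each gene summed, the tables could be compared for 75 genes. In CD45.1, 9 genes were higher and 23 lower (12% and 30.7%), where 16.6% and 13.8% of all genes passed. In CD45.2, 5 were higher and 5 lower (6.67% each), where 10.1% and 5.77% passed. Higher in both were Rps16 (0.97 and 1.03), Rps12 (1.07 and 0.71), Rpl27a and Rpl22l1. Rps16 had 47.3, 43.0 and 59.8 normalised tags in untreated CD45.1 and 106, 93.9 and 91.1 after LPS, and 54.1, 50.5 and 49.8 against 105, 111 and 97.6 in CD45.2. The Rps16 promoter interval was 117 bp in the untreated and 265 bp in the LPS table, and that of Rps12 121 and 249 bp. Genes lower in both included Rpl19 (-1.54 and -1.04), Rps26 (-0.78 and -0.81) and Rpl11 (-0.89 and -0.61). Rpl19 and Rps26 each had 2 promoter peaks before LPS and 1 after.

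Away from promoters, 1 matched peak was higher and 5 lower in CD45.1 after LPS, where 12.1% and 7.34% of all distal peaks passed, and 3 were higher and 2 lower in CD45.2, where 12.3% and 6.02% passed. The peak at 6667 bp from Rpl37rt fell in both populations, by 1.87 and 2.04 on the log2 scale. With the length offset it passed in neither (-1.18 and -1.35, adjusted p of 0.159 and 0.0599 in DESeq2). It had 18.1, 18.1 and 11.1 normalised tags in untreated CD45.1 and 3.52, 8.75 and 3.5 after LPS. The 3 that rose in CD45.2 were the Rps16 site (3.27, SE 1.13, adjusted p of 0.0278 in DESeq2), the -11475 bp site of Rps14 (1.30, SE 0.43, adjusted p of 0.0209 in DESeq2) and the Rps27a site (0.78, SE 0.26, adjusted p of 0.0219 in DESeq2). With total tags for scaling none of the 3 passed (adjusted p of 0.0782, 0.122 and 0.224 in DESeq2), and with the length offset the Rps14 site did not (0.0506). In host cells the Rps16 site went from 1.09, 0 and 0.549 to 2.52, 2.53 and 6.13 normalised tags, values near the limit of detection. The Rps14 site went from 6.53, 2.9 and 10.7 to 15.1, 17.1 and 17.1.

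Whether the response to LPS differed between graft and host cells was tested with an interaction term. None of the 140 matched peaks passed in DESeq2 or edgeR, and 8 had an unadjusted p under 0.05. Over all matched peaks 0.242% passed, and 2090 of 39235 had an unadjusted p under 0.05. Of all matched promoter peaks 0.075% passed. The median interaction at the 80 promoters was -0.13 (all promoter peaks, -0.03) with a median standard error of 0.32, and intervals lay within 2-fold in 65.0% of them. By summed promoter peaks 0 of 75 genes passed, where 0.0492% of all genes did, and 6 had an unadjusted p under 0.05. Of all genes, 464 of 10164 had one.

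Related gene lists were counted at their promoters in the same way. Of all promoter peaks, 5.01% passed in untreated mice and 2.17% after LPS. An unadjusted p under 0.05 was found at 1241 of 13193 and 875 of 11966 promoter peaks. In untreated mice 0 of 44 promoter peaks of ribosome biogenesis genes passed (median log2 fold change 0.05), with none at an unadjusted p under 0.05, and 1 of 64 peaks of mitochondrial ribosomal protein genes did. That one was Mrpl52, higher in CD45.1 (1.87, adjusted p of 0.0254 in DESeq2). Among 36 peaks of translation factors and other genes with TOP mRNAs 2 passed, both of the intermediate filament gene Vim (2.19 and 0.89), and among 16 peaks of common housekeeping genes 1 did, that of B2m, which pairs with MHC class I (-1.02, adjusted p of 0.00252 in DESeq2). After LPS none of these 4 lists had a promoter peak that passed between the populations in DESeq2, with 1, 4, 4 and 0 at an unadjusted p under 0.05 among translation factors, biogenesis, mitochondrial and housekeeping genes.

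The rule leaves some ribosomal protein genes without a peak of their own. RefSeq lists 91 protein-coding genes that match the names, and 12 of them had none: Rpl10l, Rpl15, Rpl31-ps12, Rpl32l, Rpl39l, Rpl3l, Rpl7a, Rps2, Rps23rg1, Rps25, Rps27 and Rps27rt. Several of these share a promoter region with a neighbour, to which the annotation gave the peak. Rpl15, Rpl7a, Rps25 and Rps27 had a peak within 500 bp of an annotated start that was assigned to Nkiras1, Med22, Trappc4 and Rab13. No peak was found within that distance of Rpl10l, Rpl39l, Rpl3l or Rps2. Only the outermost GENCODE start of each gene was checked, so a peak at another start would be missed. For Rpl18 that start was at 52970827, and the RefSeq start was at 52973441. Ribosomal protein mRNAs have also left many retroposed copies in the genome, and how reads that fit several places were treated is not given in the sources used here, so counts inside exons may be shared with such copies.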

How the data were processed

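The authors demultiplexed reads with bcl2fastq 2.17.1.14 and, per the labels, used Bowtie2, Picard 1.108 and HOMER on the mouse build mm9. The filters between alignment and peak calling are not given in the sources used here. Peaks were called with HOMER in each library, and the score the authors deposited for a peak is the number of tags found there, not scaled for depth. Scores served here only in an alternative that kept the upper 75% of each list. The peak lists of the 6 libraries of each treatment were merged by the authors, and the values deposited for each merged peak are unscaled tags in steps of 0.5, treated as estimated counts (expected counts) and rounded to whole numbers. In the list of CD45.1 LPS mouse 3, 28.2% of entries repeated coordinates, and distinct coordinates were used.

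Only peaks that reached a count above 10 in 1 library or more were tested over the whole table with DESeq2 1.42.0 in R 4.3.3 (median-of-ratios size factors, Wald test, Benjamini-Hochberg over all peaks tested). Of the ribosomal protein peaks, 205 of 207 and 167 of 179 were tested, and the 1 promoter peak left out was that of Rpl4 after LPS. Normalised tags are counts divided by size factors. Effects of LPS and the interaction were fitted on 39390 matched peak pairs (GenomicRanges 1.54.1), of which 39235 passed the same filter. Adjusted p-values that DESeq2 left undefined were not counted as calls. Samples were grouped by their titles. The design text names separate mice as repeats, so p-values measure the spread between 3 mice a group, and intervals of counts cover counting error only.

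Peaks named in the text were those called over 4-fold, the 5 largest rises and falls, the 5 strongest promoters per kb, panels of large- and small-subunit genes, relatives and X-linked genes, and the 3 distal peaks of smallest p. The other untreated distal calls, Rpl37a and Rps12 were added after their values were seen. The comparison of promoter sums between the tables, with the genes named from it, was also added after the data were seen. Values of 3 member genes are in the counts but not reported by name here. Members, gene lists and tests were chosen with earlier results of these data known. Both populations with the same number came from 1 mouse. The correlation of their deviations was 0.0806, 0.0823 and 0.0873 in mice 4, 5 and 6 and -0.0667, 0.0609 and 0.149 in mice 1, 2 and 3. Libraries of different mice gave -0.102 to 0.00107 in untreated mice and -0.159 to 0.117 after LPS, where same-mouse and different-mouse values overlapped. The fit with the mouse as a block is an alternative. Further alternatives were TMM factors, edgeR 4.0.16, other filters, a G+C or peak length offset, total tags or promoter peaks for scaling, other overlaps, sums by gene, and leaving out each library. The fits were tested on simulated data. The reference was mm9 with GENCODE vM1 genes, and RefSeq promoter sequences of 250 bases before to 50 after a start.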

Additional observations from a re-analysis of the deposited data

How the results depend on the processing

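The median log2 fold change of ribosomal protein promoters kept its place within the spread between replicates under most settings, and no promoter peak passed between the populations in untreated mice under any setting run. After LPS edgeR called 1 member peak higher in CD45.2, the Rpl26 promoter, where DESeq2 called 0.

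In untreated mice the 9 peaks higher in CD45.1 became 3 with a mean count of at least 20 and 5 with the replicate block and the G+C offset together. The 3 higher in CD45.2 became 0 with the replicate block, with the block and the G+C offset, and with total tags, 1 with the G+C offset or a mean count of at least 20, and 7 with edgeR. The 4 calls over 4-fold became 7 with edgeR and 1 with a mean count of at least 20. After LPS that filter left 1 of the 2 peaks higher in CD45.1 and 0 over 4-fold, and total tags moved the promoter median from -0.156 to -0.0171. The 3 genes passing by summed tags became 0 on promoter peaks alone and 0 with the replicate block.

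For LPS against untreated in CD45.1 (11 higher and 17 lower, 10 and 12 at promoters), edgeR gave 31 lower (23), the length offset 6 higher (6), 80% overlap 3 and 3 (3 and 3), total tags 3 and 0 (3 and 0), and promoter sums 23 lower. In CD45.2 (9 higher and 3 lower, 6 and 1 at promoters), the lower peaks became 7 (4) with edgeR and with promoter-based scaling, 1 (0) with the length offset, 5 (3) with a mean count of at least 20 and 8 (3) with an overlap of 1 base. TMM gave 2 lower promoters and promoter sums 5. With 80% overlap 4 (3) were higher and 0 (0) lower with a median of 0.10, and with total tags 1 (1) and 1 (0), with a median of -0.15 against 0.02. The median of all peaks moved by as much with total tags, -0.15. The -254 bp promoter peak of Rps19 turned from -0.65 to 0.29 in CD45.2 with the length offset.

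With 1 library left out, peaks higher in CD45.2 in untreated mice ranged from 0 to 1 and genes passing by sums from 0 to 2. Peaks higher in CD45.1 after LPS ranged from 1 to 3. For LPS in CD45.1, higher peaks ranged from 6 to 11 (promoters 5 to 11) and lower ones from 6 to 18 (4 to 14), lowest without CD45.1 LPS mouse 3. For LPS in CD45.2, higher peaks ranged from 4 to 9 (promoters 2 to 7), lower promoters from 0 to 2, and the promoter median from -0.0748 to 0.0389. The causes of these shifts were not tested. With the replicate block the graft-side calls at the Rpl5 and Rpl34 distal peaks in untreated mice were also lost. LPS libraries hold fewer tags, so small differences there were not detectable.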
